A study of Mus musculus with 8 samples.

Results

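The genes described here are 40 mouse regulators of cell division: cyclins, cyclin-dependent kinases (CDKs), the phosphatases and kinases that switch the CDKs, the E2F and pocket proteins, the machinery of the mitotic spindle and chromosomes, and 4 CDK inhibitors. They were taken by gene symbol from a table of 20153 genes, and all 40 had an entry. They were picked by symbol and not by a cut on measured values, though earlier results of these data were known at the time. Where a symbol had more than 1 entry, as for Rb1, the entry with the higher mean was kept. By role they fall into 5 G1 cyclins and kinases, 7 regulators of the G1/S step, 3 pocket proteins, 9 genes of G2 and mitotic entry, 12 spindle and chromosome genes, and 4 inhibitors.

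RNA was measured in 4 groups of mouse cells of the germ line or derived to resemble it, with 2 libraries in each. EGCs are embryonic germ cells, here lines 4 and 7, derived from sorted PGCs of embryonic day 9.5 (strain Oct4gfpXCD1) and taken at passage 6 after growth in serum and LIF on a layer of mouse embryonic fibroblasts. iPGCs were made from BVSC embryonic stem cells of passage 21 by the hanging drop method. PGCLCs, primordial germ cell-like cells, were made from BVSC stem cells of the same passage, kept in 2i and LIF, through an epiblast-like step and then aggregates. PGCs are primordial germ cells sorted from embryos of day 9.5 (strain Oct4gfpXCD1, passage 0), and they are the reference for the 3 culture-derived groups. Strain differs between the BVSC-derived groups and PGCs, and input differs between groups (500 cells for an EGC library, 1500 for iPGC, 300 to 500 for PGCLC and about 250 for PGC), so these features and the group cannot be told apart. Each EGC library is a line of its own.

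Cyclins are made and destroyed in turn through the cell cycle, and each activates a partner kinase. D-type cyclins with Cdk4 or Cdk6 phosphorylate the pocket proteins in G1, which releases E2F factors. E2F factors then drive cyclin E, and cyclin E with Cdk2 starts S phase. Cyclins A and B with Cdk1 bring the cell into mitosis, where Plk1 and the Aurora kinases build the spindle and the checkpoint proteins Bub1, Bub1b, Mad2l1 and Ttk hold back Cdc20 until every chromosome is attached. Many mouse genes of this programme are transcribed in a cell cycle-dependent way through E2F sites, CCAAT boxes and the CHR (cell cycle genes homology region) element. Pluripotent cells are known for a short G1 phase and low levels of INK4 and Kip inhibitors, and migrating PGCs are known to divide on their way to the gonads.

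Values are FPKM, a read number divided by transcript length and by library size, so that levels can be set side by side between genes. Pairs of values are given as replicates 1 and 2, or as lines 4 and 7 for EGCs. Depth, approximated from the smallest steps between FPKM values, was lowest in iPGC 1 (about 2680000 reads) and highest in PGC 1 (about 19700000). Germ cell markers matched the labels in part. Dppa3, which marks PGCs, stood at 40.3 and 101 FPKM in EGC lines, 423 and 317 in iPGCs, 726 and 400 in PGCLCs, against 409 and 574 in PGCs. Nanos3 stood at 0 and 0.906 FPKM in EGC lines, 0.737 and 2.13 in iPGCs, 6.98 and 2.30 in PGCLCs, against 7.37 and 22.3 in PGCs. Of the other germ cell markers, Prdm1, Prdm14 and Dnd1 overlapped between PGCs and both iPGCs and PGCLCs. Tfap2c overlapped in iPGCs and was higher in PGCLCs, and Kit was lower in iPGCs and overlapped in PGCLCs. In EGC lines all of these but Dnd1 lay below both PGC libraries. Of the pluripotency markers, Nanog, Tdgf1 and Dnmt3b were higher in all 6 culture-derived libraries than in both PGC libraries, and Sox2 was lower. Pou5f1, Zfp42 and Esrrb did not separate them. PGC 1 stood apart by markers of other embryonic cells. The 6 yolk sac and visceral endoderm markers summed to 0.0255 to 7.132 FPKM in the 6 culture-derived libraries, against 150.8 in PGC 1, where 5 of them reached 1 FPKM, and 2.319 in PGC 2. The 5 myeloid and platelet markers summed to at most 0.3078 FPKM in the culture-derived libraries, against 162.1 in PGC 1, where 4 of them reached 1 FPKM, and 5.662 in PGC 2. Of these, Tyrobp was listed at 0 everywhere. Mesoderm markers summed to 0.3999 to 16.01 FPKM in the culture-derived libraries, against 63.24 and 21.65 in PGCs. Erythroid markers summed to 0.0735 to 3.08 FPKM, against 7.489 and 32.71. In PGC 1, 5 mesoderm and 2 erythroid markers reached 1 FPKM, and in PGC 2, 2 and 1 did. The erythroid sum of PGC 2 was Alas2 alone, with Gata1, Klf1 and Epor listed at 0. Its mesoderm sum was nearly all Tbx4 and Msx2 (13.4 and 8.23 FPKM), with T and Meox1 listed at 0. The part of such cells in the results below was not tested, and each called result is therefore also given without PGC 1. In bulk RNA of this kind, fewer cells of a type and less RNA per cell cannot be told apart. The series calls the pairs biological replicates without saying whether the iPGC, PGCLC and PGC pairs came from separate cultures or embryos, so the p-values measure the spread between these libraries.

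**Figure D1:**
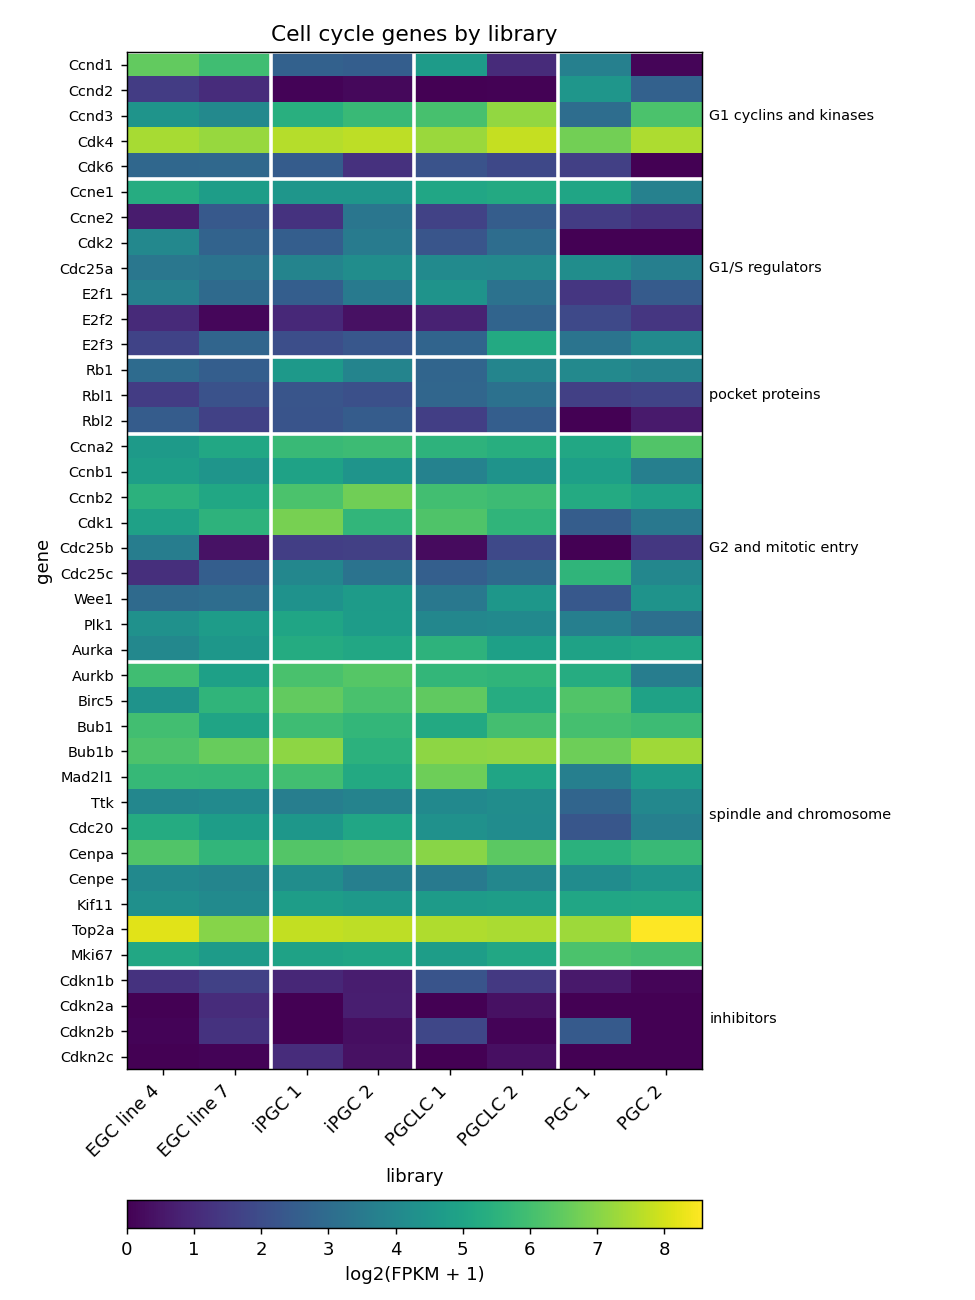
Level of each of the 40 genes (rows, ordered by role) in each of the 8 libraries (columns), as log2(FPKM + 1) on the colour scale. Top2a and Cdk4 are bright in every column, the 4 inhibitors are dark in every column, and Cdk2 is at 0 in both PGC columns.

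The study set culture-derived cells against PGCs of the embryo. Taken over all 3 culture-derived groups, 3 of the 38 cell cycle genes that could be tested differed from PGCs. Cdk1, the kinase that drives mitosis, and Cdk2, the kinase of S phase entry, were called higher in the culture-derived cells. The D-type cyclin Ccnd2 was called lower. Each of these calls was lost in most fits that left out a library, and Cdk2 was listed at 0 in both PGC libraries. The 35 other genes did not pass, among them all spindle and chromosome genes. The test was limma on log2(FPKM + 1) with Benjamini-Hochberg adjustment over 11083 genes and a threshold of 0.05, and the contrast was the mean of the EGC, iPGC and PGCLC groups minus PGC. By the same test 2.64% of all genes were called, 230 higher and 63 lower. The median of all genes itself lay 0.36 above 0 on the log2 scale, so differences are given with the value relative to that median beside them. On that relative scale the median of the 38 genes was 0.11, with 21 above 0 and 17 below. In 8 of the 38 genes all 6 culture-derived libraries lay above both PGC libraries, and in 3 they lay below, against 15.2% and 6.05% of all tested genes. Cdkn2a and Cdkn2c were too low to test.

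**Figure D2:**
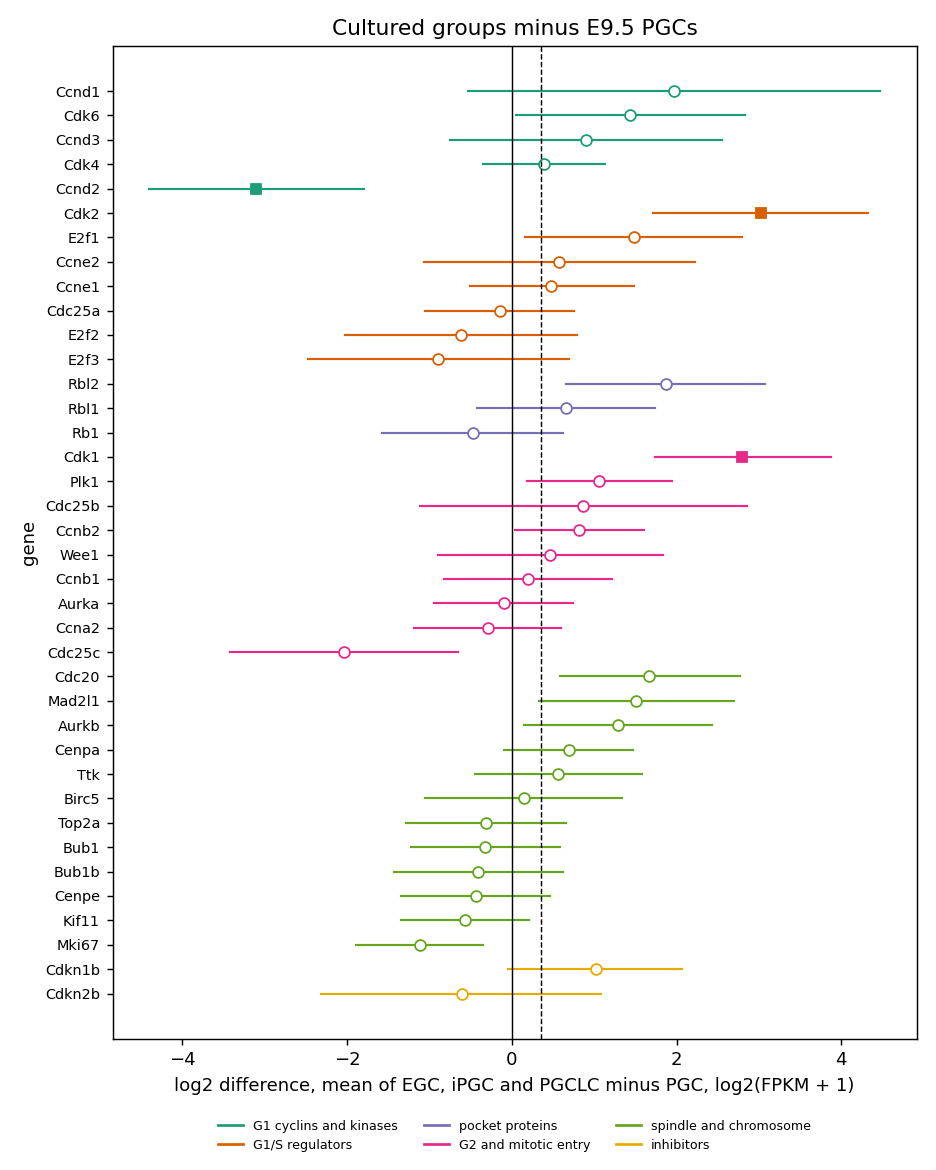
Difference of each of the 38 tested genes between the culture-derived groups and PGCs (mean of EGC, iPGC and PGCLC minus PGC, log2(FPKM + 1)), with 95% confidence intervals and colour by role. Filled squares passed the adjusted threshold of 0.05 (Cdk1, Cdk2, Ccnd2), open circles did not, and the dashed line is the median of all genes, 0.36.

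Each culture-derived group was also set against PGCs alone. These comparisons share the same PGC libraries and are not independent of each other. Among EGCs 0 of 38 genes were called by limma (0.74% of all genes), with 8 higher and 3 lower at an unadjusted p under 0.05. Among iPGCs 1 of 38 was called, Cdk1 (0.794% of all genes), with 7 higher and 2 lower at an unadjusted p under 0.05. Among PGCLCs 0 of 38 were called (1.06% of all genes), with 9 higher and 3 lower at an unadjusted p under 0.05. Of all tested genes, 17.2% had an unadjusted p under 0.05 in EGCs, 19.5% in iPGCs and 19.5% in PGCLCs. The medians of the cell cycle genes relative to all genes were 0.07 in EGCs, 0.01 in iPGCs and 0.07 in PGCLCs.

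Cdk1 binds cyclins A and B and is the CDK that mouse embryos cannot divide without. Its level was 29.0 and 45.4 FPKM in EGCs, 110 and 48.3 in iPGCs, 72.6 and 47.8 in PGCLCs, against 4.76 and 9.74 in PGCs. All 6 culture-derived libraries lay above both PGC libraries, and the lowest of them was EGC line 4. The difference between the culture-derived groups and PGCs was 2.80 ± 0.47 (log2(FPKM + 1), SE; 95% interval 1.74 to 3.87; 2.44 relative to all genes; limma adjusted p = 0.0264). Against PGCs alone it was 2.24 ± 0.57 in EGCs (limma adjusted p = 0.108), 3.23 ± 0.57 in iPGCs (0.0482) and 2.93 ± 0.57 in PGCLCs (0.0551). Without PGC 1 the joint difference was 2.35 ± 0.56 with a limma adjusted p of 0.0817, and without PGC 2 it was 3.25 ± 0.56 with 0.0314. Leaving out any of the other 6 libraries in turn gave a limma adjusted p of 0.0623 to 0.0961. The call in iPGCs likewise held only without PGC 2 (limma adjusted p = 0.0398), while it was 2.79 ± 0.63 without PGC 1 (0.0911) and the other 6 omissions gave up to 0.397.

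Cdk2 is the partner of cyclins E and A. It stood at 14.8 and 5.55 FPKM in EGCs, 4.91 and 10.7 in iPGCs, and 3.75 and 7.41 in PGCLCs, while both PGC libraries had it at exactly 0. The groups therefore did not overlap. No fold is given, because an exact 0 in such a table can be a failed estimate. On the log2(FPKM + 1) scale the culture-derived groups lay 3.02 ± 0.57 above PGCs (SE; 95% interval 1.72 to 4.32; 2.66 relative to all genes; limma adjusted p = 0.0361). Its own group differences from PGCs were 3.35 in EGCs, 3.06 in iPGCs and 2.66 in PGCLCs, each ± 0.70 (limma adjusted p = 0.0715, 0.0802 and 0.0961). The joint call was lost when any of the 8 libraries was left out, with a limma adjusted p of 0.0609 to 0.125, and without PGC 1 it was 3.02 ± 0.73 (limma adjusted p = 0.0843). With both PGC values at 0 the pseudocount set the size, which was 6.16 ± 0.78 with a pseudocount of 0.1 (limma adjusted p = 0.00921) and 1.30 ± 0.35 with 5 (0.111). The call was also lost with equal library medians (2.64 ± 0.59, limma adjusted p = 0.0578). Pmel, which overlaps Cdk2 on the other strand, was at most 2.00 FPKM in any library.

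The stretches upstream of 4 of the genes are shown because they carry the elements known from cell cycle promoters. They are Cdk1 and Cdk2, which were called higher in culture-derived cells with the limits given above, and Cdc20 and Mki67. Cdc20 and Mki67 are G2/M genes whose levels lay on opposite sides of PGCs without passing the test. The sequences are the 250 bases before the RefSeq start (GRCm38.p6), 5′ to 3′ on the gene's strand, which is the minus strand for each. They lie at chr10:69352913-69353162 for Cdk1, chr10:128705052-128705301 for Cdk2, chr4:118437344-118437593 for Cdc20 and chr7:135716380-135716629 for Mki67. Capitals mark 3 motifs, each searched on both strands and none overlapping another here. The CHR element was searched as TTTGAA. The CCAAT box shows on the other strand as ATTGG. The E2F motif was searched as TTTNNCGC, and in Cdk2 it is marked as its reverse complement.
Cdk1: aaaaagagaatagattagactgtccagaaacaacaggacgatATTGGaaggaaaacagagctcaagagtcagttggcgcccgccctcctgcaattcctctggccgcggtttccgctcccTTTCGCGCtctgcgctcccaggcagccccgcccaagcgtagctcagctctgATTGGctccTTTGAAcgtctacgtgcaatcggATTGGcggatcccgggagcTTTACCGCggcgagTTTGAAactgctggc
Cdk2: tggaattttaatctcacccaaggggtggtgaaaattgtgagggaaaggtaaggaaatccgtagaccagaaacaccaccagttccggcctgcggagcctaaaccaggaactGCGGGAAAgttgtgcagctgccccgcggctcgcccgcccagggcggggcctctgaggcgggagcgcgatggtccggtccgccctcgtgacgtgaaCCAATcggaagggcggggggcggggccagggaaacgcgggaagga
Cdc20: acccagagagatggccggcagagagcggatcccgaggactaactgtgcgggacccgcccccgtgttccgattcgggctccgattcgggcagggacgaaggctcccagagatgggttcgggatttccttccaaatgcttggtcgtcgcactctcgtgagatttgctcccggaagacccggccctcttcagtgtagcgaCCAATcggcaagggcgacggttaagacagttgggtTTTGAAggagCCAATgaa
Mki67: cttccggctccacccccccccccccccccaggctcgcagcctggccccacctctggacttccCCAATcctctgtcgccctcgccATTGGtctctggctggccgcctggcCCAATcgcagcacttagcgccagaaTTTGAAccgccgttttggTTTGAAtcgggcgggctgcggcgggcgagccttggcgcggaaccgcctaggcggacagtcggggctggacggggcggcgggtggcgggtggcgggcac
The Cdk1 window held 2 CHR elements, 3 CCAAT boxes and 2 E2F motifs. The Cdk2 window held 1 CCAAT box and 1 E2F motif and no CHR letters. The Cdc20 window held 1 CHR element and 2 CCAAT boxes, and that of Mki67 held 2 CHR elements and 3 CCAAT boxes. Of the 40 genes, 32 matched the RefSeq table by symbol. A gene was counted if any of its windows held the motif. CCAAT boxes stood in 21 of these 32 (65.6%), against 37.5% of 27025 genes with windows of the same length. By role, they stood in 6 of 6 genes of G2 and mitotic entry and 9 of 11 spindle and chromosome genes. CHR letters stood in 10 of 32 (31.2%, against 18.3%) and E2F letters in 7 of 32 (21.9%, against 4.94%). Cdk1 and Cdk2 shared the E2F letters but not the CHR letters, and a match is a description of the letters only.

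**Figure D3:**
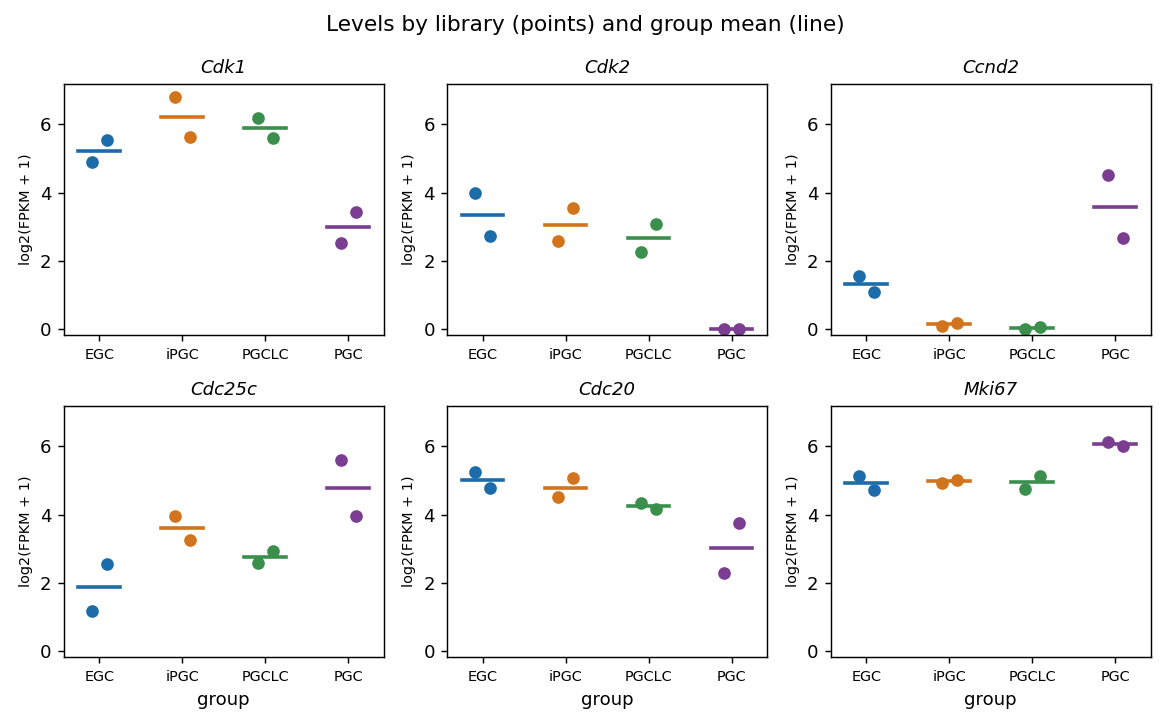
Levels of 6 genes in each library (points) with the group mean (line), as log2(FPKM + 1), with EGC, iPGC and PGCLC left of PGC. In Cdk1, Cdk2 and Cdc20 both PGC points lie below all others. In Ccnd2 and Mki67 both lie above all others, and in Cdc25c PGC 2 and iPGC 1 lie level.

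Among the 5 G1 cyclins and kinases the makeup of the D-type cyclins differed most between libraries. The median of the class relative to all genes was 0.54 in the culture-derived groups against PGCs, with 4 of 5 above 0 and Ccnd2 below. Ccnd2 stood at 1.89 and 1.12 FPKM in EGCs, 0.0635 and 0.125 in iPGCs, 0 and 0.0329 in PGCLCs, against 21.8 and 5.31 in PGCs. Both PGC libraries lay above all 6 others, and iPGCs and PGCLCs were near 0. The joint difference was -3.10 ± 0.57 (log2(FPKM + 1), SE; 95% interval -4.40 to -1.80; -3.46 relative to all genes; limma adjusted p = 0.0333). The group differences were -2.28 in EGCs, -3.46 in iPGCs and -3.56 in PGCLCs, each ± 0.70 (limma adjusted p = 0.157, 0.0657 and 0.0552). PGC 1, which carried the yolk sac and myeloid RNA, had the higher of the 2 PGC levels. Without PGC 1 the joint difference was -2.17 ± 0.54 (limma adjusted p = 0.0899), and without PGC 2 it was -4.03 ± 0.56 (0.0199). Leaving out any of the other 6 libraries gave limma adjusted p-values of 0.0721 to 0.119. The size moved with the pseudocount, to -5.07 ± 0.96 with 0.1 (limma adjusted p = 0.0296) and -1.60 ± 0.34 with 5 (0.0742), and the call was lost with a filter at 5 FPKM (0.0535).

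Ccnd1, the D-type cyclin most often induced by growth factor signals, was high in EGCs. Its level was 89.3 and 59.6 FPKM in EGCs, 5.33 and 4.91 in iPGCs, 24.8 and 1.08 in PGCLCs, against 12.4 and 0.0858 in PGCs. Both EGC lines lay above all 6 other libraries, while PGCLC and PGC replicates lay far apart. The difference of EGCs was 4.28 ± 1.34 from PGCs, 3.60 ± 1.34 from iPGCs and 3.34 ± 1.34 from PGCLCs, and with this spread none passed (limma adjusted p = 0.167, 0.422 and 0.327). Of the fibroblast markers, Col1a1 was at 0.0142 and 0 FPKM in the EGC lines, which were grown on fibroblasts, and Col1a2 and Col3a1 were listed at 0 in both. The 6 fibroblast markers together summed to 0.977 and 3.56 FPKM there, nearly all from Thy1, and their part in the Ccnd1 level was not tested.

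Ccnd3 completed the family, and its values are given although the rule for showing every library did not select it. It stood at 20.6 and 15.5 FPKM in EGCs, 41.2 and 55.4 in iPGCs, 66.4 and 142.9 in PGCLCs, against 7.33 and 68.6 in PGCs. No comparison passed, and EGCs lay 2.38 ± 0.89 below PGCLCs (limma adjusted p = 0.306). As a share of the summed FPKM of the D-type cyclins, Ccnd1 made up 79.9% and 78.2% in EGCs. Ccnd3 made up 88.4% and 91.7% in iPGCs and 72.8% and 99.2% in PGCLCs. The PGC libraries did not match each other, with 52.5% Ccnd2 and 17.6% Ccnd3 in PGC 1 and 7.18% Ccnd2 and 92.7% Ccnd3 in PGC 2.

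**Figure D4:**
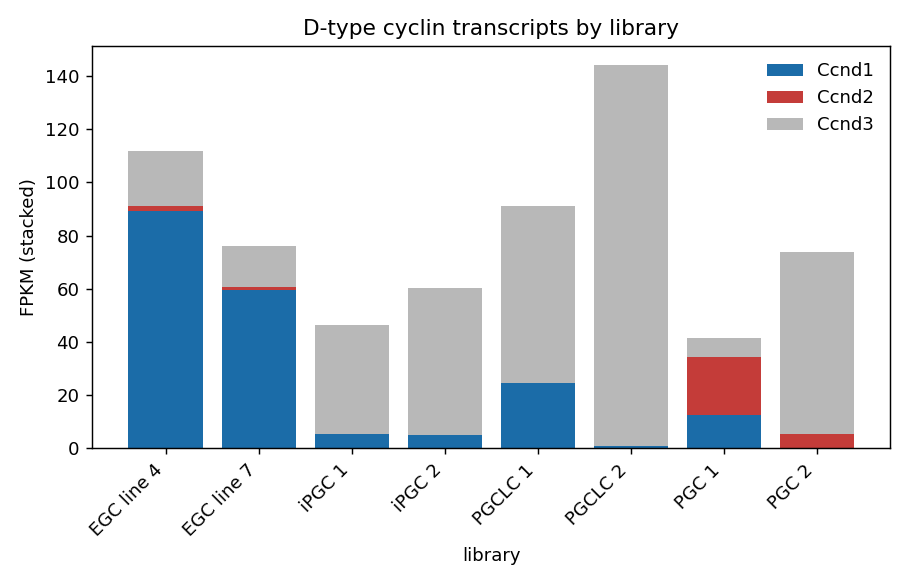
FPKM of the 3 D-type cyclins stacked for each library. The EGC bars are mostly Ccnd1, the iPGC and PGCLC bars mostly Ccnd3, and Ccnd2 is visible mainly in PGC 1 and PGC 2.

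Cdk4, the main kinase partner of the D-type cyclins, was among the highest of all 40 genes. It stood at 172 and 149 FPKM in EGCs, 195 and 206 in iPGCs, 153 and 225 in PGCLCs, against 106 and 179 in PGCs. The groups overlapped except for iPGCs, both of which lay above both PGC libraries and above both EGC lines, and no difference passed (0.39 ± 0.32 in the joint comparison, limma adjusted p = 0.494). Cdk6, its paralogue, reached 6.50 FPKM in EGC line 7 and was listed at 0 in PGC 2. Cdk4 made up at least 95.8% of the summed FPKM of the 2 kinases in every library.

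Apart from Cdk2, none of the G1/S regulators passed in any comparison. The median of all 7 relative to all genes was 0.12 in the joint comparison. Ccne1, the cyclin with the highest mean level in this class, stood at 38.6 and 25.9 FPKM in EGCs, 21.4 and 21.4 in iPGCs, 32.4 and 36.1 in PGCLCs, against 32.0 and 12.5 in PGCs. The PGC values spanned most of the range of the others, and the joint difference was 0.48 ± 0.43 (limma adjusted p = 0.528). Ccne2 was lower, between 0.557 and 9.29 FPKM, and Ccne1 made up 69.8% to 98.6% of their sum. Cdc25a, the phosphatase that frees Cdk2 from its inhibitory phosphate, lay between 8.60 and 17.5 FPKM, with both EGC lines below all other libraries.

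The activating E2F factors differed in makeup. E2f1 was highest in PGCLC 1 (20.1 FPKM) and lowest in PGC 1 (1.58 FPKM), E2f2 lay between 0.103 and 5.79 FPKM, and E2f3 between 2.26 and 35.9 FPKM. E2f1 made up 78.6% and 52.9% of their summed FPKM in EGCs, 54.3% and 70.6% in iPGCs, 75.2% and 16.7% in PGCLCs, against 12% and 20.2% in PGCs. E2f3 was the largest part in PGCLC 2 (71.8%) and in both PGC libraries (67.4% and 72.7%). All 6 culture-derived libraries lay above both PGC libraries for E2f1, with a joint difference of 1.48 ± 0.58 that did not pass (limma adjusted p = 0.181).

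Pocket proteins bind E2F and hold it inactive until CDKs phosphorylate them. Rb1, the retinoblastoma protein, was the highest of the 3 by mean, with 7.01 and 4.93 FPKM in EGCs, 24.0 and 13.4 in iPGCs, 5.93 and 13.7 in PGCLCs, against 15.3 and 13.2 in PGCs. Both EGC lines lay below the iPGC and PGC libraries (difference from PGCs -1.14 ± 0.59, limma adjusted p = 0.368). Rbl2, which acts mainly in resting cells, stood at 4.61 and 2.18 FPKM in EGCs, 3.68 and 4.66 in iPGCs, 1.98 and 4.92 in PGCLCs, against 0 and 0.526 in PGCs. Both PGC libraries lay below the other 6, and the joint difference of 1.87 ± 0.53 did not pass (limma adjusted p = 0.0942). Rbl1 lay between 1.85 and 8.18 FPKM, highest in the PGCLC libraries. Rb1 made up 42.4% to 76.3% of the summed FPKM of the 3 in the culture-derived libraries, against 88.1% and 82.1% in PGCs.

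Of the 9 genes of G2 and mitotic entry, Cdk1 alone passed, and the class median relative to all genes was 0.11 in the joint comparison. Ccnb2, a B-type cyclin that binds Cdk1, had the highest mean of the class. It stood at 44.5 and 33.4 FPKM in EGCs, 69.6 and 104.2 in iPGCs, 61.3 and 57.1 in PGCLCs, against 36.7 and 28.7 in PGCs. The iPGC and PGCLC libraries lay above both PGC libraries and the EGC lines overlapped them, and the difference of iPGCs was 1.37 ± 0.42 (limma adjusted p = 0.141). The other cyclins that bind Cdk1 differed less: Ccnb1 lay between 12.0 and 29.7 FPKM and Ccna2 between 24.5 and 75.3, and both overlapped between PGCs and each other group. Relative to these partners Cdk1 was low in PGCs, where Ccna2, Ccnb1 and Ccnb2 each exceeded it in both libraries. Ccnb2 also exceeded Cdk1 in EGC line 4, iPGC 2 and PGCLC 2, and Ccna2 did in iPGC 2. Ccnb1 lay below Cdk1 in every culture-derived library.

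The phosphatase Cdc25c, which activates Cdk1 at mitotic entry, lay on the other side. Its values and those of Mki67 below are given in full although the rule did not select them. Cdc25c stood at 1.25 and 4.84 FPKM in EGCs, 14.6 and 8.48 in iPGCs, 4.97 and 6.58 in PGCLCs, against 47.3 and 14.5 in PGCs. PGC 1 had the highest level, and PGC 2 overlapped with iPGC 1. The difference was -2.92 ± 0.74 in EGCs and -2.04 ± 0.61 in the joint comparison, and neither passed (limma adjusted p = 0.108 and 0.105). Cdc25c made up 5.67% to 48.6% of the summed FPKM of the 3 Cdc25 phosphatases in the culture-derived libraries, against 73% and 51.8% in PGCs. Cdc25b, its paralogue, was low, with 11.3 FPKM in EGC line 4, at most 2.67 in the other 7 libraries, and 0 in PGC 1.

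Wee1, the kinase that holds Cdk1 inactive, lay between 6.70 and 24.9 FPKM in the culture-derived libraries, and the PGC libraries (4.14 and 19.9) spanned most of that range. Plk1, a kinase that promotes mitotic entry and spindle assembly, stood at 14.4 to 31.9 FPKM in the culture-derived libraries and at 11.9 and 7.76 in PGCs, and its joint difference of 1.06 ± 0.39 did not pass (limma adjusted p = 0.157). Aurka, the Aurora kinase of the spindle poles, lay between 15.0 and 44.8 FPKM, lowest in both EGC lines.

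The 12 spindle and chromosome genes were the most abundant class, with summed levels of 749 and 526 FPKM in EGCs, 819 and 677 in iPGCs, 823.5 and 692 in PGCLCs, against 618 and 864 in PGCs. None passed in any comparison. Their median relative to all genes was -0.44 in the joint comparison, -0.41 in EGCs, -0.37 in iPGCs and -0.23 in PGCLCs. On this scale 7 of 12 lay below 0 in each. Without subtracting the median of all genes it was -0.08 in the joint comparison, -0.34 in EGCs, 0.09 in iPGCs and 0.21 in PGCLCs. The 39 other mitotic genes described below lay nearer to all genes. Their medians relative to all genes were -0.06 in the joint comparison, 0.11 in EGCs, -0.08 in iPGCs and -0.07 in PGCLCs. Top2a, the topoisomerase that untangles replicated chromosomes, was the highest of all 40 genes by mean, with 290 and 126 FPKM in EGCs, 220 and 208 in iPGCs, 186 and 178 in PGCLCs, against 157 and 377 in PGCs. The 2 PGC libraries enclosed most of the other values.

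Cdc20, the activator of the anaphase-promoting complex that the spindle checkpoint restrains, had the largest range of group means in the class. It stood at 37.1 and 26.4 FPKM in EGCs, 21.9 and 32.5 in iPGCs, 19.2 and 16.9 in PGCLCs, against 3.86 and 12.4 in PGCs. All 6 culture-derived libraries lay above both PGC libraries, and the joint difference of 1.67 ± 0.48 did not pass (limma adjusted p = 0.0972). Mad2l1, the checkpoint protein that binds Cdc20, was likewise at 31.6 to 100.9 FPKM in the culture-derived libraries and at 11.9 and 25.6 in PGCs (1.51 ± 0.52, limma adjusted p = 0.142). The other checkpoint genes overlapped between the 6 culture-derived libraries and PGCs: Bub1 lay between 31.2 and 64.8 FPKM, Bub1b between 44.2 and 162, and Ttk between 6.01 and 17.4.

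Mki67, the proliferation marker that coats mitotic chromosomes, was the reverse of Cdc20. It stood at 34.0 and 25.2 FPKM in EGCs, 29.4 and 31.6 in iPGCs, 25.9 and 34.1 in PGCLCs, against 69.1 and 63.1 in PGCs. The PGC replicates lay close together and above all 6 other libraries, and the joint difference was -1.12 ± 0.34 (-1.48 relative to all genes), which did not pass (limma adjusted p = 0.108). Kif11, the motor that separates the spindle poles, showed the same order at a smaller size, with 15.9 to 26.3 FPKM in the culture-derived libraries and 32.3 and 34.4 in PGCs (-0.57 ± 0.34, limma adjusted p = 0.357). Cenpe, a kinetochore motor, lay between 10.3 and 21.5 FPKM. Cenpa, the centromeric histone, lay between 43.2 and 129.9 FPKM, Aurkb, the kinase of the chromosomal passenger complex, between 11.3 and 78.2, and its partner Birc5 between 20.2 and 89.2.

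The 4 CDK inhibitors were low throughout, and neither of the 2 that could be tested, Cdkn1b and Cdkn2b, passed. Cdkn1b, the Kip inhibitor of Cdk2 complexes, had the highest mean, with 1.39 and 2.18 FPKM in EGCs, 0.936 and 0.597 in iPGCs, 3.68 and 1.71 in PGCLCs, against 0.511 and 0.0802 in PGCs. All 6 culture-derived libraries lay above both PGC libraries, and the joint difference was 1.02 ± 0.46 (limma adjusted p = 0.241). For iPGCs its sign changed when libraries were set to equal medians or quantiles. The other 3 of the 4 are INK4 inhibitors of Cdk4 and Cdk6. Cdkn2a was at most 1.12 FPKM and listed at 0 in 5 of 8 libraries, Cdkn2c was at most 1.15, and Cdkn2b reached 1.39 in EGC line 7 and 2.56 in PGCLC 1, against 4.36 in PGC 1 and 0 in PGC 2.

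The culture-derived groups were also set against each other. PGCLCs against iPGCs, 2 ways of deriving germ cell-like cells from the same stem cells, gave 0 of 38 cell cycle genes by limma, and 0 at an unadjusted p under 0.05 (0.018% of all genes called, with 519 of 11083 at an unadjusted p under 0.05). The median of the 9 genes of G2 and mitotic entry was -0.54, with 0 above 0 and 9 below, Aurka the nearest at -0.01 ± 0.45. That of the 12 spindle and chromosome genes was -0.11, with 5 above 0 and 7 below. The 39 other mitotic genes described below had a median of 0.01. The largest gap of any cell cycle gene was in E2f3 (1.80 ± 0.85, limma adjusted p = 1), where PGCLC 2 stood at 35.9 FPKM and PGCLC 1 at 5.83, against 3.14 and 4.05 in iPGCs. EGCs against iPGCs gave 0 of 38 by limma (0.117% of all genes), with 1 higher and 3 lower at an unadjusted p under 0.05. EGCs against PGCLCs gave 0 of 38 (0.0993% of all genes), with 1 higher and 1 lower. Of all tested genes, 10.3% had an unadjusted p under 0.05 for EGCs against iPGCs and 13.9% against PGCLCs. In both, the gene higher at the unadjusted level was Ccnd1, and the G1 class had medians relative to all genes of 1.43 and 1.26, with 4 of 5 genes above 0.

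Other genes of the cell cycle, from lists outside the 40, were examined in the same fits. Among them were 26 tested genes of DNA replication and S phase, 39 other mitotic genes and 16 subunits or regulators of the anaphase-promoting complex. Of these, 0 were called by limma in any comparison with PGCs. The median of the S phase genes relative to all genes lay at -0.53 in EGCs, -0.57 in iPGCs and -0.44 in PGCLCs. The median of all genes, subtracted here, was 0.07 in EGCs, 0.47 in iPGCs and 0.44 in PGCLCs. Most of the gap in iPGCs and PGCLCs was thus that shift. For the genes of the anaphase-promoting complex the relative medians were -0.62 in EGCs, -0.18 in iPGCs and 0.05 in PGCLCs. Of 24 tested further cyclins, kinases and E2F genes, Ccng1, a cyclin induced by p53 in response to damage, was higher in every culture-derived group. It stood at 15.4 and 24.2 FPKM in EGCs, 58.2 and 35.7 in iPGCs, 44.0 and 27.2 in PGCLCs, against 0.488 and 0.396 in PGCs. The joint difference was 4.49 ± 0.44 (4.13 relative to all genes, limma adjusted p = 0.00745), larger than that of any of the 40 genes, and it passed without any of the 8 libraries in turn (0.0154 to 0.0413; 4.53 ± 0.53 with 0.0207 without PGC 1). The group differences were 3.82, 5.02 and 4.63, each ± 0.53, in EGCs, iPGCs and PGCLCs (limma adjusted p = 0.0299, 0.0107 and 0.0165). The call in EGCs was lost without any of the EGC, iPGC or PGCLC libraries (0.0706 to 0.17), that in iPGCs without either iPGC library (0.193 and 0.122), and that in PGCLCs without any of the iPGC or PGCLC libraries (0.0641 to 0.194). Without PGC 1 the group differences were 3.86, 5.06 and 4.67, each ± 0.60 (limma adjusted p = 0.0484, 0.0243 and 0.0392).

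Cul1, a scaffold of the SCF ubiquitin ligases that destroy cyclin E and Kip inhibitors, was lower. It stood at 66.4 and 73.5 FPKM in EGCs, 82.6 and 99.9 in iPGCs, 66.9 and 105.6 in PGCLCs, against 302.8 and 234.9 in PGCs, with a joint difference of -1.70 ± 0.32 (limma adjusted p = 0.0343). Of 10 other inhibitors, Cdkn2d, the INK4 family member not among the 40, was higher. It stood at 5.84 and 4.45 FPKM in EGCs, 6.29 and 10.4 in iPGCs, 15.8 and 13.7 in PGCLCs, against 0.127 and 1.51 in PGCs, with a joint difference of 2.51 ± 0.51 (limma adjusted p = 0.0434). The call of Cul1 was lost when any of the 8 libraries was left out (limma adjusted p = 0.0531 to 0.123), and that of Cdkn2d when any but PGC 2 was (0.079 to 0.149). Without PGC 1 the difference of Cul1 was -1.52 ± 0.41 (limma adjusted p = 0.11) and that of Cdkn2d 1.93 ± 0.55 (0.119).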

How the data were processed

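RNA of 8 libraries was amplified with an Ovation kit, spiked with control RNA and sequenced as 50-base single-end reads, per the labels' protocols. The authors deposited FPKM per gene and library, and TopHat2, Cufflinks and GRCm38 (mm10) are named in the submitters' processing notes. No strand setting, annotation, filter or version was given in the sources used here. Read counts were not used, since the deposited values are FPKM, and depth was approximated from the smallest steps of low FPKM values.

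From the 20171 entries, 18 repeats of an identifier were dropped. The 11083 genes with 1 FPKM in 2 libraries or more were log2-transformed after adding 1 and entered limma 3.58.1 (R 4.3.3) with robust, trended variances. All 8 libraries shared 1 fit (4 residual degrees of freedom, median prior 4.53), with two-sided tests and Benjamini-Hochberg adjustment per comparison. The scale understates changes of low genes. The fit was tested on data made with 200 changed genes. The members and lists were chosen with earlier results of these data known. Every library's value is given for genes that passed, and for each role's highest mean and widest range of group means. Ccnd3, Cdc25c and Mki67 were added after their values were seen. Of other lists, genes called against PGCs are named. Annotation came from GENCODE M21 (GRCm38), where 20 of the 40 genes overlap a gene on the other strand. Of these, Ccnd2 and Cdk2 are among those called. Named pseudogenes exist for Ccnd3, Ccnb1 and Ccnb2, so their values are uncertain. Promoter sequences are from RefSeq (GRCm38.p6). Other pseudocounts, filters, scalings, variance models, the replicate block and the omission of each library were tried.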

Additional observations from a re-analysis of the deposited data

How the results depend on the processing

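The alternatives were followed for 57 gene differences chosen for a low p in the comparison, so that a reversal was unlikely, and none reversed. Their alternatives kept their side of the threshold 889 times, lost the call 94 times and gained it 11 times. Most of the 57 had not been called and so could not lose a call, and the 889 is no measure of how stable the calls were. For the joint calls of Cdk1, Cdk2 and Ccnd2, and that of Cdk1 in iPGCs, more alternatives lost the call than kept it. The joint call of Ccng1 was kept in every alternative. Among all 38 tested cell cycle genes, equal library medians changed the sign of 0 differences in EGCs against PGCs, 9 in iPGCs against PGCs, 8 in PGCLCs against PGCs, 2 in the joint comparison, 1 in PGCLCs against iPGCs, 10 in EGCs against iPGCs and 9 in EGCs against PGCLCs, and quantile normalization changed 2, 4, 4, 1, 2, 8 and 9. For the culture-derived groups against PGCs, 3 cell cycle genes were called. The count was 0 with a pseudocount of 5, with no filter and with library weights (the weights were chosen after seeing the data), and 0 to 4 when a library was left out. It was 0 in 7 of 8 omissions, and without PGC 2 the 4 were Ccnd2, Ccnd3, Cdk1 and Cdc20. Equal library medians also ended the joint call of Cdk2 (limma adjusted p = 0.0578), and a filter at 5 FPKM that of Ccnd2 (0.0535). For iPGCs, where 1 was called, the count was 2 with a pseudocount of 0.1 and 0 with a pseudocount of 5, no filter, quantile normalization, equal library medians, no variance trend, library weights or only the groups compared, and 0 to 2 when a library was left out, with 2 (Ccnd2 and Cdk1) without PGC 2. For PGCLCs the count was 3 with a pseudocount of 0.1, 1 with a filter at 5 FPKM and 0 to 3 when a library was left out, with 3 (Ccnd2, Ccnd3 and Cdk1) without PGC 2. For EGCs it was 1 with a pseudocount of 0.1. In the 3 comparisons among culture-derived groups it was 0 under every alternative. The cause was not tested, except that no filter raises the number of genes tested and that omissions leave fewer samples. Scaling moved the split of all genes called. For iPGCs 83 were higher and 5 lower, against 37 and 8 with quantiles and 34 and 12 with equal medians. For PGCLCs 104 and 13 stood against 29 and 7, and 36 and 18. For the joint comparison 230 and 63 stood against 152 and 122, and 129 and 132. For EGCs 58 and 24 stood against 57 and 37, and 52 and 30. Replicate numbers did not pair the iPGC, PGCLC and PGC libraries (correlations of deviations 0.01, -0.03 and 0.06), and with the replicate block, as without it in the same 6 libraries (chosen after seeing the data), 0 of the 38 cell cycle genes were called in iPGCs and in PGCLCs. Ccng1, outside the 40, lost its call with the replicate block in iPGCs (limma adjusted p = 0.064, against 0.0338 without the block) and in PGCLCs (0.0678, against 0.0403). With only the groups compared, its adjusted p was 0.392 in EGCs, 0.162 in iPGCs and 0.317 in PGCLCs. The EGC call of Ccng1 was also lost with a pseudocount of 5, no filter or library weights, and its PGCLC call with no filter. The joint calls of Cul1 and Cdkn2d were lost under these 3 settings too, that of Cul1 also with no variance trend, and that of Cdkn2d also with quantiles or equal medians. EGC lines share no number with the others. The joint comparison uses all libraries, so fitting only the groups compared changes nothing there. Of the medians by role, 721 recomputed values moved by less than the spread between replicates and 98 by more. Many settings cannot move a median relative to all genes, so the 721 is no measure of stability. They are equal library medians, no variance trend, library weights, only the groups compared, and omissions outside the compared groups. iPGC 1 had the lowest depth, so low values are least certain there.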

Other observations

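Cdkn1a, the Cip inhibitor that p53 induces, was named after its values were seen. It stood at 63.9 and 45.9 FPKM in EGCs, 62.7 and 75.3 in iPGCs, and 56.8 and 26.7 in PGCLCs. In PGCs it was listed at 0 in PGC 1 and stood at 48.7 in PGC 2, so the PGC replicates differed by more than any culture-derived pair. It was thus far more abundant per length than the 4 inhibitors among the 40 genes in 7 of 8 libraries. Cdkn1c, the third Kip family inhibitor, was likewise named after its values were seen. It stood at 0.264 and 0.316 FPKM in EGCs, 8.35 and 7.98 in iPGCs, 0.523 and 0.156 in PGCLCs, against 21.8 and 0.150 in PGCs, where PGC 1 carried the yolk sac and myeloid markers.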
